A study of Mus musculus with 30 samples.

Results

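The poly(A) tail genes described here are Pabpn1, Pabpc1, Pabpc4, Paip1, Paip2, Zc3h14, Papola and Nudt21. They were chosen by name from the 20227 gene symbols of a table of hippocampal transcript levels, with results of these data in view, because Pabpn1 was highest on the ChowCR diet. Pabpn1 is therefore described with no test between diets. Of the 8 genes, 6 had rows in the table, together 35 of its 46109 transcripts. Papola had 15 rows, Pabpn1 7, Paip1 5, Paip2 4, Zc3h14 3 and Pabpc1 1. Pabpc4 and Nudt21 are not analysed here. The single Pabpc1 row is a retained-intron transcript, ENSMUST00000146327, so the Pabpc1 coding mRNA is not analysed here either.

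Each of the 30 libraries was made from the whole hippocampus of a mouse aged 15 months. There were 6 libraries on each of 5 diets, 3 male and 3 female, called Chow, ChowCR, 5% P, 10% P and 15% P in the labels. The study compared low protein, high carbohydrate diets with caloric restriction; CR is read as caloric restriction and P as dietary protein from the series title, and the sources used here give neither the strain nor the diets' composition. Levels are in FPKM, in which fragments are divided by the length of the transcript and the size of the library, as the authors computed them for each transcript in each library. The file holds no counts and hence no depth. Where a library did not list a transcript its value is missing, and each library listed between 19681 and 21853. The numbers in sample titles went from 97.3 to 122.3 in ChowCR and from 1.3 to 88.3 in the other diets; their meaning is not stated, and whatever followed them cannot be told apart from ChowCR. Neuron markers were present as labelled, with 9 of 10 above 0, while Neurod2 had no row or no value above 0. The neuron markers summed to 1184 to 1881 FPKM across libraries. Choroid plexus markers varied far more, from 37.3 to 8058 FPKM.

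Most eukaryotic mRNAs end in a tail of adenosines that is added in the nucleus after the transcript is cut. Nudt21, a subunit of cleavage factor I, helps choose the cutting site, and Papola, the canonical nuclear poly(A) polymerase, adds the tail. Pabpn1, the nuclear poly(A)-binding protein, coats the growing tail and keeps the polymerase at work, while Zc3h14 is a zinc finger protein that also binds poly(A). In the cytoplasm Pabpc1 and Pabpc4 take over the tail, Paip1 promotes translation through them, and Paip2 displaces them and represses it. In human cells PABPN1 is reported to limit its own expression through retention of its last intron.

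The mouse Pabpn1 gene is on chromosome 14, plus strand, spanning 54892500 to 54898169 in GRCm38 (mm10). Its 3 main forms differ at their ends. ENSMUST00000022808 has 7 exons and 302 codons, and its last intron, intron 6, of 744 bases at chr14:54897273-54898016, is spliced out. ENSMUST00000116476 keeps that intron inside exon 6, of 1036 bases, and ends after 292 codons. ENSMUST00000150975 keeps intron 5, of 81 bases, and the last intron, and has 319 codons. The following coding ends, from GENCODE M21 on GRCm38, show where the 2 most abundant forms part. Lower case is the last 24 bases of the shared exon, and capitals are the coding bases that follow, with the stop codon.
ENSMUST00000022808, last intron spliced out: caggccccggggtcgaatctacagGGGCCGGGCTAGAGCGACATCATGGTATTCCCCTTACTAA
ENSMUST00000116476, last intron kept: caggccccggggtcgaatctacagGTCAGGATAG
The spliced form reads on for 40 bases, to a TAA stop in the last exon. The form that keeps the intron meets a TAG stop 10 bases into it.

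**Figure D1:**
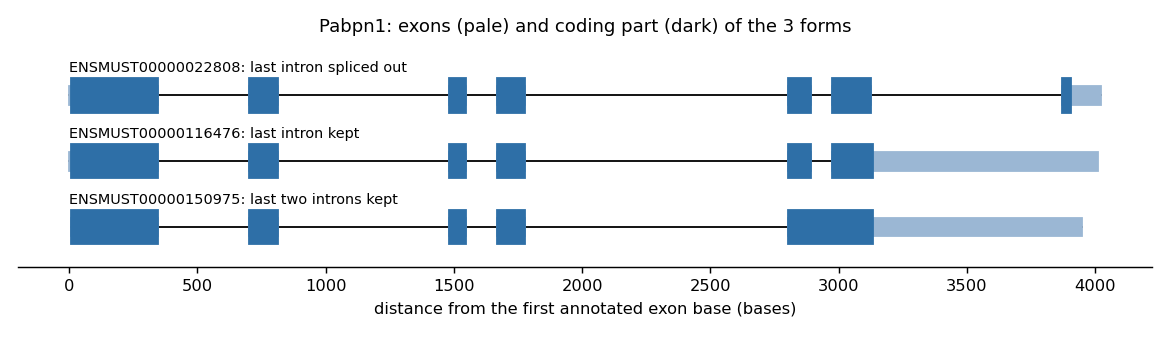
Exons of the 3 main Pabpn1 forms drawn to scale, with distance from the first annotated exon base in bases on the x axis; dark blocks are coding, pale blocks are untranslated and thin lines are introns. Exons 2 to 4 are the same in the 3 forms, and the forms differ at their ends and in whether the intron of 744 bases at the right, and the one of 81 bases before it, are kept.

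The 3 forms begin with the same coding start. It is shown because its run of GCN codons, in capitals, encodes the alanine tract whose expansion in human PABPN1 causes oculopharyngeal muscular dystrophy.
Pabpn1 coding start: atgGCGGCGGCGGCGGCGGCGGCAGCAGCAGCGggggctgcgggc
The run held 10 GCN codons in the reference sequence.

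The Pabpc1 coding mRNA has no row and is outside the ranking that follows. Of the 6 genes with rows, Pabpn1 was the most abundant, at 82.6 ± 7.15 FPKM summed over its transcripts (SD, n = 30). Its form with the last intron spliced out was the one that stood apart in ChowCR. That form had a lowest, median and highest value of 32.3, 34.3 and 36.5 FPKM in ChowCR. In Chow the same values were 19.99, 25.2 and 28.9 FPKM. They were 22.2, 26.6 and 31.5 FPKM in 5% P, then 23.7, 27.2 and 29.0 FPKM in 10% P. In 15% P they were 19.5, 23.8 and 27.9 FPKM. All 6 ChowCR libraries were above each of the other 24, and the gap to the highest of those, 5% P replicate 5, was from 32.3 to 31.5 FPKM. The other 4 diets overlapped one another.

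As means, the spliced form averaged 34.2 ± 1.77 FPKM in ChowCR, against 24.9 ± 2.99 FPKM in Chow (SD, n = 6 each), a ratio of 1.37. The ratio of ChowCR to 5% P, at 27.0 ± 3.97 FPKM, was 1.27, and to 10% P, at 26.7 ± 2.24 FPKM, it was 1.28. The ratio to 15% P, at 23.8 ± 2.72 FPKM, was the highest, 1.44. On the log2(FPKM + 0.5) scale ChowCR was 0.46 above Chow, and 5% P, 10% P and 15% P differed from ChowCR by -0.35, -0.35 and -0.52. By sex, the 3 ChowCR females were between 32.3 and 36.5 FPKM and the 3 males between 32.5 and 35.4 FPKM. For scale, 2 of the 4447 transcripts tested (0.045%) had all 6 ChowCR libraries above the other 24, the Pabpn1 form and a transcript of the stress gene Gadd45b. Pabpn1 was chosen for this pattern, so the share is background and not a test.

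**Figure D2:**
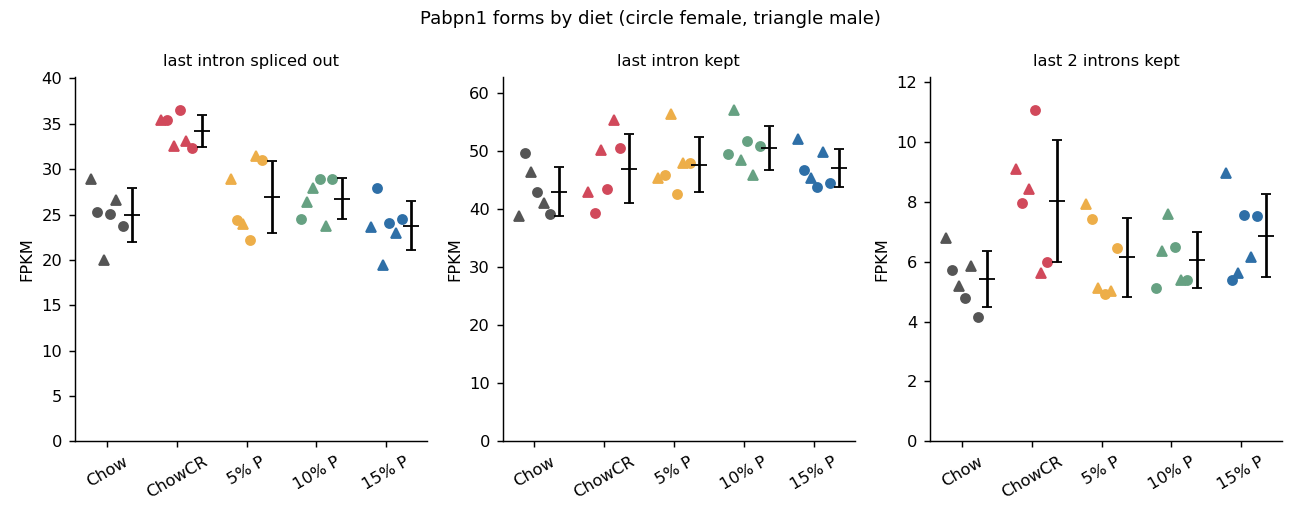
FPKM (y axis) of the 3 main Pabpn1 forms in each library, by diet (x axis), with circles for females, triangles for males, and a bar at the mean with its SD (n = 6). In the left panel the ChowCR points lie between 32.3 and 36.5 FPKM, above all other points, while in the middle and right panels ChowCR overlaps the other diets.

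The form that keeps the last intron did not follow the spliced one. Its lowest, median and highest values were 39.3, 47.0 and 55.4 FPKM in ChowCR and 38.9, 42.1 and 49.7 FPKM in Chow. The 18 libraries of the P diets ran from 42.7 to 57.1 FPKM. The diets overlapped throughout, and the order of their means put 10% P first at 50.6 ± 3.78 FPKM, then 5% P, 15% P, ChowCR and Chow, with Chow at 43.1 ± 4.27 FPKM (SD, n = 6). The mean of ChowCR, 47.0 ± 6.02 FPKM, differed from that of 15% P, 47.1 ± 3.26 FPKM, by less than the spread within either diet. On the log2 scale ChowCR was 0.12 above Chow, and the P diets differed from ChowCR by 0.025, 0.11 and 0.0098 for 5% P, 10% P and 15% P.

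The form that keeps both of the last introns was less abundant, at 6.50 ± 1.56 FPKM (SD, n = 30). It had a lowest, median and highest value of 5.62, 8.20 and 11.1 FPKM in ChowCR and 4.14, 5.45 and 6.79 FPKM in Chow. The remaining libraries ran from 4.93 to 8.95 FPKM. Its mean was highest in ChowCR, at 8.02 ± 2.02 FPKM (SD, n = 6), with 2 ChowCR libraries above all others and the remaining 4 among them. So a higher mean in ChowCR was not limited to the form without the last intron.

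As a share, the spliced form made up 37.4 to 47.4 percent of the spliced plus last-intron forms in ChowCR, with a median of 42.2 percent. In the other 24 libraries the share was 29.7 to 42.6 percent with a median of 35.5 percent. The groups overlapped: 3 ChowCR libraries exceeded all others, and Chow replicate 1, at 42.6 percent, was the highest of the rest. The mean share was 42.3 ± 4.22 percent in ChowCR, 36.7 ± 4.38 in Chow, 36.1 ± 3.89 in 5% P, 34.6 ± 1.95 in 10% P and 33.5 ± 2.99 in 15% P (SD, n = 6 each). A share within a library does not depend on how that library was scaled. It does depend on how reads from the shared exons were divided between forms, a step that the sources used here leave unstated.

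**Figure D3:**
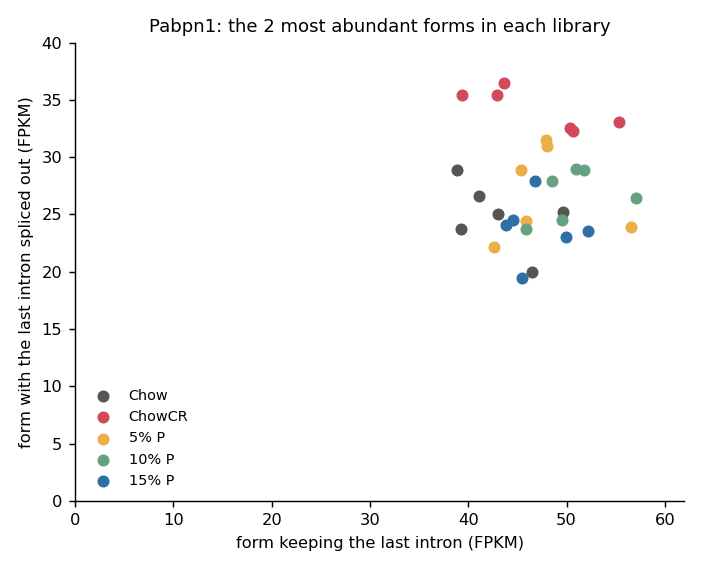
Each point is a library, with the FPKM of the Pabpn1 form that keeps the last intron on the x axis and that of the form without it on the y axis, coloured by diet. The 6 ChowCR points form the upper edge, at 32.3 FPKM or more on the y axis, and spread over 39.3 to 55.4 FPKM on the x axis.

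The remaining 4 Pabpn1 rows were low. ENSMUST00000139985, a coding form, averaged 0.74 FPKM and ENSMUST00000146271, a retained-intron transcript, 0.54 FPKM, and each had a value in every library. ENSMUST00000172557 and ENSMUST00000141446 were listed in 15 libraries each, among them 1 of the 6 ChowCR and 5 of the 6 Chow libraries. Where listed, their means were 0.39 and 0.30 FPKM.

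Summed over its transcripts, Pabpn1 was at 90.4 ± 4.24 FPKM in ChowCR, 85.4 ± 4.73 in 10% P, 82.8 ± 6.10 in 5% P, 79.1 ± 5.65 in 15% P and 75.3 ± 5.14 in Chow (SD, n = 6 each). The lowest, median and highest sums were 83.3, 90.8 and 95.3 FPKM in ChowCR and 68.8, 75.2 and 84.4 FPKM in Chow. ChowCR and Chow overlapped in that 1 Chow library, at 84.4 FPKM, exceeded the lowest ChowCR library. In all, 10 of the other 24 libraries were above the lowest ChowCR library, and 3 ChowCR libraries were above all others. Neighbours in this order of diets differed by less than 1 SD, apart from 10% P and ChowCR, which differed by 4.97 FPKM. Among gene sums, 1 of 8130 (0.0123%), that of Gadd45b, had all 6 ChowCR values above the rest. The spliced form accounted for 9.28 of the 15.1 FPKM by which the ChowCR sum exceeded the Chow sum, for 7.23 of the 7.59 FPKM by which it exceeded 5% P, and for 10.4 of the 11.3 FPKM by which it exceeded 15% P. Against 10% P the spliced form was 7.46 FPKM higher and the sum 4.97 FPKM higher, so the other forms together were lower in ChowCR there.

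Pabpn1 shares its span with the predicted gene Gm20521, whose annotation runs through from the upstream gene Bcl2l2. Gm20521 was above 0 in 1 library, ChowCR replicate 5, at 0.22 FPKM. Bcl2l2 itself ran from 3.40 to 7.12 FPKM in ChowCR and from 1.94 to 27.8 FPKM elsewhere, so it did not share the Pabpn1 pattern. Library-wide measures were also at an extreme in ChowCR by their means. Transcripts annotated as retained-intron took 3.18 to 3.6 percent of all FPKM in ChowCR and 3.34 to 3.94 percent elsewhere. The main Pabpn1 forms that keep introns are annotated as coding, so this measure leaves them out. Of the endothelium markers, 3 of 5 were above 0, and Cdh5 and Kdr had no row or no value above 0. These markers summed to 2.36 to 17.96 FPKM in ChowCR and to 14.05 to 23.6 FPKM in Chow. In the P diets they summed to 12.4 to 30.2 FPKM in 5% P, 15.3 to 22.98 FPKM in 10% P and 7.47 to 24.4 FPKM in 15% P. The part of these 2 measures in the Pabpn1 values was not tested. Choroid plexus markers, 8 of 8 above 0, had medians of 1806 FPKM in ChowCR and 1732 FPKM in Chow, against 57.2, 133 and 102 FPKM in 5% P, 10% P and 15% P. Their sums ran from 56.2 to 8058 FPKM in ChowCR, from 53.5 to 7063 FPKM in Chow and from 37.3 to 6445 FPKM in the P diets. Over the settings that kept all libraries or 1 sex, ChowCR differed from Chow in the spliced form by 0.43 to 0.48 on the log2 scale. These ends came from males alone and females alone. The P diets differed from ChowCR by -0.43 to -0.27 for 5% P, -0.37 to -0.33 for 10% P and -0.61 to -0.44 for 15% P. A fit with the choroid plexus gene Ttr as a covariate was among the settings. The part of choroid plexus tissue in the Pabpn1 values was not tested. In bulk samples fewer cells of a type and less RNA per cell cannot be told apart.

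Sex was not used to choose the genes, so it could be tested for Pabpn1. The spliced form was at 27.7 ± 4.43 FPKM in females and 27.0 ± 4.79 FPKM in males (SD, n = 15 each), a log2 difference of 0.039 ± 0.062 (SE; limma, adjusted p = 0.94). The gene sum was at 81.7 ± 7.04 FPKM in females and 83.4 ± 7.39 FPKM in males (SD, n = 15 each), a log2 difference of -0.030 ± 0.041 (SE; limma, adjusted p = 0.94). In neither case did the sexes differ beyond the spread between animals.

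For the other genes, each diet was compared with Chow and each P diet with ChowCR, by limma on log2(FPKM + 0.5) with adjustment over the whole table. Transcripts entered when they were listed throughout and averaged 1 FPKM or more, which left Paip2 with 1 transcript, Zc3h14 with 1 and Papola with 3. Gene sums that averaged 1 FPKM or more were tested too, with unlisted transcripts at 0, which added Paip1. In ChowCR against Chow, 0 of the 5 transcripts passed the threshold of an adjusted p of 0.05, where 2 of all 4447 (0.045%) did. None of the 4 gene sums passed, where 6 of all 8130 (0.0738%) did, and 1 of the 4, Zc3h14, had an unadjusted p under 0.05, as 529 of the 8130 did. Calls were this rare in each comparison, so 0 among so few genes is near the background.

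Zc3h14, on chromosome 12 from 98746964 to 98787753, had its highest mean in ChowCR, as did the sums of Pabpn1, Paip1 and the near-0 Pabpc1. Its gene sums had a lowest, median and highest value of 12.3, 16.9 and 20.9 FPKM in ChowCR. In Chow they were 5.21, 12.6 and 17.5 FPKM, and in 5% P 5.26, 10.5 and 17.5 FPKM. In 10% P they were 11.4, 13.5 and 18.6 FPKM, and in 15% P 9.32, 9.81 and 16.6 FPKM. The diets overlapped, with 1 ChowCR library above all others and 10 other libraries above the lowest ChowCR one. ChowCR was 0.52 ± 0.25 above Chow on the log2 scale (SE; limma, adjusted p = 0.76), and this difference was 0.32 without Chow replicate 1. The 5% P diet differed from ChowCR by -0.68 (limma, adjusted p = 0.79) and 15% P by -0.61 (limma, adjusted p = 0.72), both with an SE of 0.25. The 5% P difference was -0.33 in females alone and -1.04 in males alone. These were the only 3 differences of a gene sum outside Pabpn1 with an unadjusted p under 0.05, and none passed after adjustment.

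The Zc3h14 signal came mainly from 2 of its 3 rows. ENSMUST00000110104, with 15 exons, was listed throughout at 9.07 ± 3.31 FPKM (SD, n = 30), from 2.12 to 15.4 FPKM. ENSMUST00000110105, with 17 exons, was listed in 28 libraries at a mean of 3.61 FPKM, and took 5.53 to 45.9 percent of the gene sum in ChowCR. ENSMUST00000057000, with 14 exons, was listed in 19 libraries at a mean of 0.76 FPKM. The 15-exon form differed between ChowCR and Chow by 0.66 on the log2 scale (limma, adjusted p = 0.77), and by 0.37 without Chow replicate 1. Zc3h14 overlaps Eml5 on the opposite strand. The kit marks strand, but the setting used for quantification is not given, so reads of the overlap are uncertain.

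**Figure D4:**
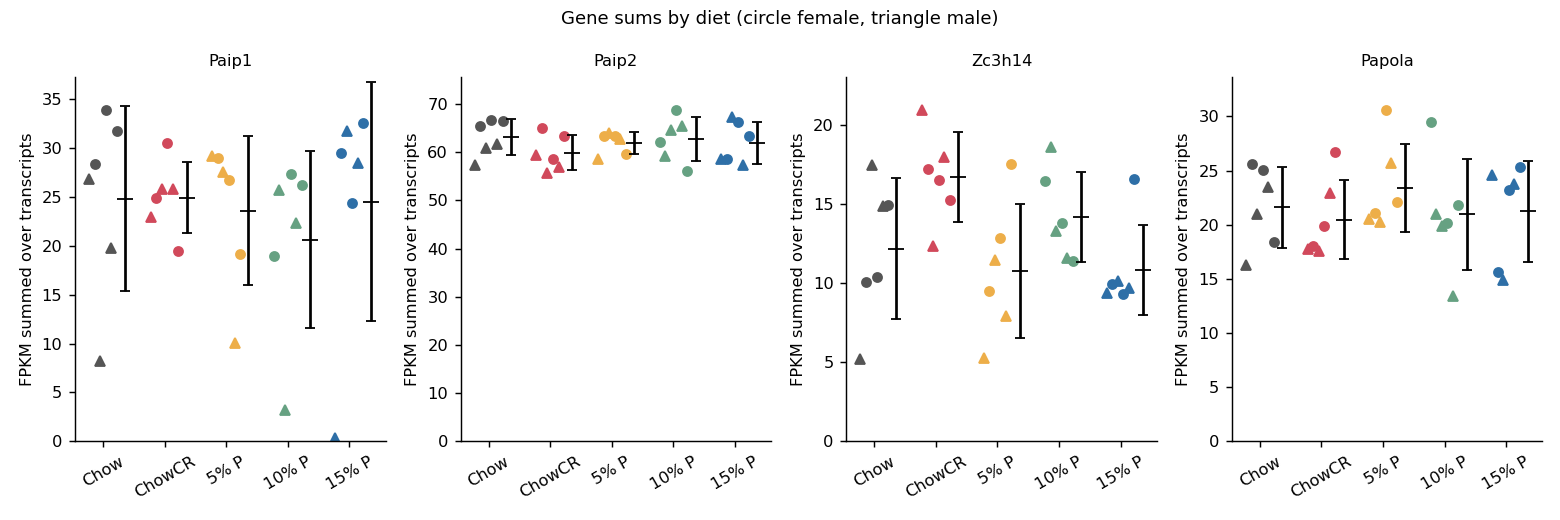
FPKM summed over transcripts (y axis) for Paip1, Paip2, Zc3h14 and Papola in each library, by diet (x axis), with circles for females, triangles for males, and a bar at the mean with its SD (n = 6). Zc3h14 and Paip1 have their highest mean in ChowCR with overlap. Paip2 stays between 55.7 and 68.7 FPKM, and 4 male libraries are low for Paip1.

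Papola lies on chromosome 12 from 105784694 to 105838944. Its gene sum was at 20.5 ± 3.67 FPKM in ChowCR, 21.6 ± 3.75 in Chow, 23.4 ± 4.05 in 5% P, 20.95 ± 5.14 in 10% P and 21.2 ± 4.66 in 15% P (SD, n = 6 each). The values overlapped across diets, from 13.4 FPKM in a 10% P library to 30.6 FPKM in a 5% P library. ChowCR differed from Chow by -0.077 ± 0.16 (SE of the log2 difference; limma, adjusted p = 0.98). Single libraries moved this small value, to -0.14 without ChowCR replicate 6 and to -0.025 without ChowCR replicate 2. The sum was spread over many forms: each library listed between 8 and 13 of the 15 rows, and coding forms made up 50.7 to 88.5 percent of it. The most abundant, ENSMUST00000170002, was listed in 29 libraries at a mean of 8.62 FPKM. ENSMUST00000109901, the coding form with 22 exons, had a mean of 2.47 FPKM, and 1 Chow library reached 9.89 FPKM.

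Among Papola rows, the retained-intron transcript ENSMUST00000163805 had the lowest p for sex. It was at 1.46 ± 1.2 FPKM in females and 0.744 ± 0.572 FPKM in males (SD, n = 15 each), a log2 difference of 0.58 ± 0.27 (SE; limma, adjusted p = 0.87). The means of females were above those of males in Chow, ChowCR, 5% P and 10% P but below them in 15% P. The other 7 member transcripts had an unadjusted p for sex above 0.05, and no transcript of the 4447 (0%) passed for sex.

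The cytoplasmic tail was covered by the 2 regulators of poly(A)-binding protein, since the Pabpc1 coding mRNA had no row. The retained-intron Pabpc1 row was near 0, between 0.022 and 0.24 FPKM in the 27 libraries that listed it. Paip2, the repressor, lies on chromosome 18 from 35598617 to 35617187. It had the second highest gene sum of the 6 genes with rows, at 61.9 ± 3.69 FPKM (SD, n = 30). Nearly all of it was ENSMUST00000041314. Its lowest, median and highest gene sums were 55.7, 59.1 and 65.0 FPKM in ChowCR and 57.4, 63.6 and 66.7 FPKM in Chow. ChowCR had the lowest mean, 59.9 ± 3.63 FPKM, and Chow the highest, 63.1 ± 3.74 FPKM (SD, n = 6 each), but the diets overlapped. Their log2 difference was -0.076 ± 0.062 (SE; limma, adjusted p = 0.89). With a range of 55.7 to 68.7 FPKM over 30 libraries, Paip2 had the smallest spread relative to its mean of the 5 genes.

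Paip1, the activator, lies on chromosome 13 from 119428601 to 119458218. Its mean sum was highest in ChowCR, but its highest median was in 15% P. The medians were 25.4 FPKM in ChowCR, 27.6 in Chow, 27.1 in 5% P, 24.04 in 10% P and 28.99 in 15% P. In 4 libraries the sum was far below these, Chow replicate 3 at 8.27 FPKM, 5% P replicate 5 at 10.0 FPKM, 10% P replicate 3 at 3.20 FPKM and 15% P replicate 1 at 0.30 FPKM. Those 4 were male, while the 15 females ran from 19.01 to 33.9 FPKM. Females were 0.75 above males on the log2 scale (SE 0.39; limma, adjusted p = 0.91), which did not pass, and the difference was 0.42 without 15% P replicate 1. ChowCR differed from Chow by 0.12 (SE 0.62; limma, adjusted p = 1), and the sign turned, to -0.093, without Chow replicate 3, and to -0.34 in females alone.

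The Paip1 rows that were listed differed between libraries, and the low sums did not share 1 pattern of listed rows. None of the 5 rows was listed in every library. The 3 long coding forms, each with 11 exons, were ENSMUST00000126957 in 22 libraries, ENSMUST00000109203 in 16 and ENSMUST00000026520 in 7. Most libraries carried the gene on 1 or 2 of them, and the carrier differed between libraries of a diet. In ChowCR replicate 4 ENSMUST00000026520 held 30.1 FPKM, while in ChowCR replicate 5 ENSMUST00000109203 held 24.4 FPKM. The library at 0.30 FPKM, 15% P replicate 1, listed none of the 3. An unlisted form counts as 0 in the sum, and whether its reads were absent or assigned elsewhere was not tested.

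**Figure D5:**
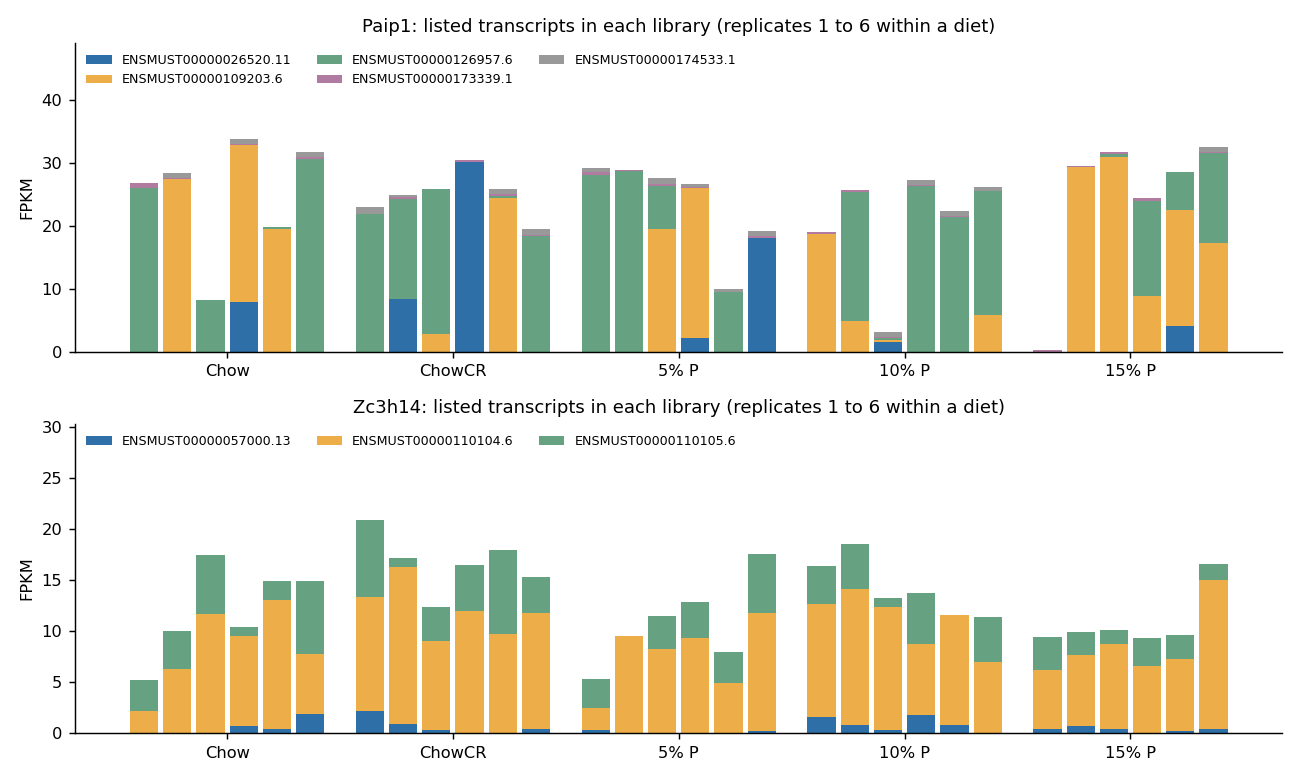
FPKM of each listed transcript (stacked bars, y axis) in the 6 libraries of each diet (x axis) for Paip1 (top) and Zc3h14 (bottom); unlisted transcripts add nothing. The colour that fills a Paip1 bar changes from library to library within a diet, and its lowest bars are at 0.30 and 3.20 FPKM, whereas ENSMUST00000110104 of Zc3h14 is present in every library.

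In the remaining comparisons 0 of the 5 transcripts and 0 of the 4 gene sums passed. Against Chow, the background of calls among transcripts was 0 for 5% P, 10% P and 15% P (0% each). Among gene sums it was 0 for 5% P (0%), 2 of 8130 (0.0246%) for 10% P and 1 of 8130 (0.0123%) for 15% P. Against ChowCR, it was 0% among transcripts for each P diet, and among gene sums 3 of 8130 (0.0369%) for 5% P and 0% for 10% P and 15% P. The trend with protein percentage over the 18 libraries of the P diets had a background of 0% for both. For sex, 5 of 8130 gene sums (0.0615%) passed, and 0 of the 5 member sums did. The smallest adjusted p of a member outside Pabpn1 in a diet comparison was 0.72 (limma). At an unadjusted p under 0.05, these diet comparisons held 0 member transcripts and the 2 Zc3h14 sums given above, where 468 of the 8130 gene sums in 5% P and 496 in 15% P, each against ChowCR, also were. The comparisons with ChowCR share its 6 libraries, so they are not separate evidence.

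The wider poly(A) machinery was read through 5 lists of 96 genes in all, of which 77 had a value and 53 were tested as gene sums. In ChowCR against Chow, 0 passed, 4 had an unadjusted p under 0.05, as 529 of all 8130 gene sums did, and 25 were higher and 28 lower. Their median log2 difference was -0.059, beside 0.022 for all gene sums. None passed in another diet comparison or for sex either. Among 15 tested cleavage and polyadenylation genes, 6 were higher and 9 lower in ChowCR. Ssu72, a phosphatase of the cleavage machinery, averaged 28.3 ± 4.93 FPKM in ChowCR, against 31.8 ± 7.28 FPKM in Chow (SD, n = 6 each). Rbbp6 was at 9.30 ± 5.82 and 10.9 ± 5.55 FPKM. Cstf2t, a paralog of the cleavage stimulation subunit that binds RNA, ran from 0 to 23.7 FPKM in ChowCR and from 17.3 to 24.1 FPKM in Chow. A sum of 0 can mean that no transcript of the gene was listed.

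Deadenylation genes, which shorten the tail, were 6 higher and 6 lower of 12. Cnot7, a catalytic subunit of the CCR4-NOT deadenylase, averaged 19.3 ± 4.94 FPKM in ChowCR, against 22.5 ± 2.5 FPKM in Chow (SD, n = 6 each). Ccrn4l, also called Noct, was at 13.8 ± 2.05 and 12.4 ± 2.72 FPKM, and Rqcd1, also called Cnot9, at 9.18 ± 2.28 and 7.89 ± 2.91 FPKM. Of 5 tested cytoplasmic polymerases and their regulators, 2 were higher and 3 lower. Cpeb4, which binds a polyadenylation element in mRNAs, averaged 7.56 ± 5.08 FPKM in ChowCR, against 12.6 ± 4.27 FPKM in Chow (SD, n = 6 each), a log2 difference of -1.15 ± 0.55 (SE; limma, adjusted p = 0.77). Papd7 and Cpeb1 averaged 5.17 and 4.77 FPKM over all libraries.

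Of 12 paralogs and partners of poly(A)-binding protein, 5 were higher and 7 lower in ChowCR. In 15% P against Chow 11 of the 12 were higher, with a median log2 difference of 0.42 beside -0.018 for all gene sums, but 0 passed and 1 had an unadjusted p under 0.05, as 432 of the 8130 did. The translation factors among them were uneven between libraries. Eif4b ran from 0 to 45.5 FPKM in Chow and from 36.5 to 42.1 FPKM in 15% P, Eif4g1 from 0 to 41.4 FPKM over all libraries, and Gspt1, the release factor eRF3a, from 1.1 to 23.1 FPKM. An unlisted transcript counts as 0 in these sums, so a sum of 0 is not shown to be an absence of reads. The part of unlisted transcripts in the 15% P difference was not tested. Of 9 genes of nuclear decay and export, 6 were higher and 3 lower in ChowCR. Ddx39b, an export helicase, averaged 60.5 ± 4.54 FPKM in ChowCR, against 60.6 ± 5.00 FPKM in Chow (SD, n = 6 each), Nxf1 at 24.6 ± 11.8 and 20.8 ± 12.3 FPKM, and Ncbp2 at 14.7 ± 4.55 and 17.5 ± 1.95 FPKM. None of these differences passed.

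Likeness to the Pabpn1 gene sum was read across the 30 libraries among 2636 other gene sums with a mean of at least 10 FPKM. Predicted, Rik and location-named symbols were left out beforehand. The most like were Med16, Bcan, Map1s, Tdpx-ps1 and Rps4l. Their Pearson r with it was 0.64, 0.61, 0.61, 0.58 and 0.57. The 2 least like were Csnk1a1 and Cfap36, at -0.63 and -0.60. These are descriptions over libraries that share diets and normalization. With diet and sex means removed, r was 0.44 for Med16, 0.60 for Bcan, 0.053 for Map1s, 0.46 for Tdpx-ps1 and 0.61 for Rps4l.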

How the data were processed

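Poly(A) RNA of 30 hippocampi was sequenced on an Illumina HiSeq with 100 cycles from one end of each fragment, from stranded TruSeq libraries, per the labels' protocols. The submitters' processing notes name, with no roles, the mm10 build, StringTie 1.2.4, TopHat2 2.0.14, bcl2fastq 2.18.0, DESeq2 1.16.1 and featureCounts 1.4.6. The authors deposited FPKM per transcript; the depth is unknown, so no counting error could be given.

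The members, lists, marker lists and tests were chosen with earlier results of these data known. Of the 96 list genes, those that passed were to be named, and otherwise the 3 of highest mean in each list. The 5 gene sums most like that of Pabpn1 and the lowest ones were also to be named, and 1 of these is not reported here. Rows were matched by gene symbol, and 43416 transcript identifiers were found in GENCODE M21, ignoring version suffixes. The deposited versions are older, so structures may differ from those the authors used.

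Values were tested as log2(FPKM + 0.5), which understates changes of low transcripts, with limma 3.58.1 in R 4.3.3 (eBayes with trend, two-sided). Diet and sex were terms, and the 30 libraries shared 1 estimate of spread. Only the 18 P diet libraries entered the trend. P-values were adjusted by Benjamini-Hochberg over 4447 transcripts or 8130 gene sums in each comparison, with a threshold of 0.05. No adjustment was made across comparisons. The fit was tested on simulated data. Replicates are described in the series as biological and are numbered in accession order within a diet. Medians, ranges and plots were made with pandas 2.3.3 and matplotlib 3.10.9.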

Additional observations from a re-analysis of the deposited data

Results flagged for a closer look

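In a diet of 6 libraries, a library is named here when its gap to the nearest other, divided by the range of the diet, was above Dixon's 95% critical value for 6 values. The rule was applied to 85 sets of 6 values, in which chance flags about 1 in 20, or 4.25; it named 7.

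For the Paip1 gene sum, 10% P replicate 3 was at 3.20 FPKM beside 19.01 to 27.3 FPKM in the other 5, and 15% P replicate 1 at 0.30 FPKM beside 24.4 to 32.6 FPKM. For the Zc3h14 gene sum, 15% P replicate 6 was at 16.6 FPKM, with the other 15% P libraries between 9.32 and 10.1 FPKM. Its Zc3h14 transcript ENSMUST00000110104 was also apart, at 14.6 FPKM beside 5.77 to 8.34 FPKM. The Papola form ENSMUST00000109901 was at 9.89 FPKM in Chow replicate 2 and between 0.70 and 3.63 FPKM in the rest of Chow. The low Pabpn1 form ENSMUST00000139985 was at 0.95 FPKM in ChowCR replicate 1, with 0.34 to 0.53 FPKM in the other ChowCR libraries. In 10% P replicate 5 it was at 3.06 FPKM, beside 0.40 to 0.99 FPKM. None of the named libraries held an extreme value for the spliced Pabpn1 form by this rule.

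In the limma F test of sex by diet, 0 members passed (smallest adjusted p = 0.96), beside 4 of 4447 transcripts and 7 of 8130 gene sums, which does not show that the sexes respond alike.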

How the results depend on the processing

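No member outside Pabpn1 passed in a diet comparison or, Pabpn1 included, for sex, in 782 recomputed counts over the 18 comparisons (other pseudocounts, filters, scaling and spread models, covariates, each sex alone, each library left out); the smallest adjusted p was 0.49 (limma). The spliced Pabpn1 form in ChowCR stayed above Chow by 0.43 to 0.48 on the log2 scale over settings and by 0.40 to 0.51 with a library left out. Divided by median-ratio factors of 0.98 to 1.07, an alternative chosen after seeing the data, all 6 ChowCR libraries, from 30.7 FPKM, were above the others, up to 30.3 FPKM. The last-intron form in 15% P against ChowCR turned sign among alternatives, from -0.034 to 0.053 around 0.0098, as did 5% P, from -0.020 to 0.069 around 0.025. Of the tested differences, that of the Paip1 gene sum between ChowCR and Chow turned sign, from 0.12 to -0.34 in females alone and, with a library left out, ran from -0.093 (without Chow replicate 3) to 0.27 (without ChowCR replicate 6); the cause was not tested. The Papola sum over forms listed in every library differed by -0.34. By Spearman, Tdpx-ps1 was less like Pabpn1, at 0.42. Each sex alone left 3 libraries a diet. No paired analysis was possible because the numbers in the titles are not shared between diets.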
